A study of Mus musculus with 10 samples.

Results

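Calmodulin is the small protein through which most cells read calcium, and the genes described here encode calmodulin-like proteins, calcineurin and calmodulin-dependent protein kinases (CaM kinases) in cultured mouse keratinocytes. The list named 9 genes, Calm2, Calm3, Calm4, Calml3, Camk2d, Camk2g, Ppp3ca, Ppp3cb and Rcan1, and took every probe set annotated to exactly 1 of them. Such probe sets were found for 7 genes, 21 probe sets in all, out of 45037 probe sets tested and 18193 genes. The platform annotation used here assigned no probe set to Calm2 or Calm3, and both were not analysed here.

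The cells were primary keratinocytes from the skin of mice labelled Sgpp1-/- (KO, 5 arrays) and Sgpp1+/+ (WT, 5 arrays). Arrays are named by replicate number, 8, 9, 10, 21 and 23 for KO and 1 to 5 for WT. Sgpp1 encodes sphingosine-1-phosphate phosphatase, and loss of it is the labelled difference between the groups. Both groups had been grown for 3 to 4 days in medium with 8% fetal calf serum and 0.05 mM calcium, a low level that is commonly used to keep cultured keratinocytes from differentiating. The labels name no allele, strain or age and do not say whether arrays of a group came from separate animals or cultures. The p-values therefore cover only the spread between the arrays, which may be technical. Each sample was read on 1 Affymetrix Mouse Genome 430 2.0 array, and values are log2 signals. A probe set is said to pass where limma, fitted across all probe sets, gave a Benjamini-Hochberg adjusted p under 0.05.

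Calmodulin binds calcium through EF-hand loops and then wraps around target proteins. One target is calcineurin, a phosphatase that sends NFAT transcription factors into the nucleus, and Rcan1 encodes a protein that binds and restrains it. Another is CaM kinase II, a ring of subunits that include the delta and gamma forms encoded by Camk2d and Camk2g. In skin a rise of calcium is the main signal that makes basal keratinocytes differentiate, and calmodulin-like proteins accumulate in the differentiating layers.

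The brightest probe set of Sgpp1 was 1.15 higher in KO on the log2 scale (SE 0.33, limma adjusted p = 0.156), and on all 3 of its probe sets every KO array lay above every WT array. The disrupted part of the gene is not given, so these probe sets do not check the labels, and the groups are named here by their labels alone. All 9 markers of differentiating keratinocytes on the list passed as higher in KO, with array means of 10.83 to 11.27 in KO and 8.95 to 9.80 in WT. Of 7 basal keratinocyte markers, which included Krt5 and Krt14, 0 passed (median difference 0.20 on the log2 scale). Of all genes, 1.99% passed in either direction. Markers of fibroblasts (7 genes), melanocytes (6), myeloid and Langerhans cells (7), muscle (7) and neurons (6) gave 0 passes in either direction. For lists this short, 0 passes says little beside the 1.99% of all genes. In the same order, these markers had median differences of -0.25, 0.72, -0.15, -0.48 and -0.09 (log2). Their array means overlapped between the groups, at 5.81 to 7.59 in KO and 5.55 to 8.90 in WT for fibroblast markers and at 8.14 to 9.73 in KO and 6.61 to 9.89 in WT for melanocyte markers. Array WT 1 was the least like the others: its correlations with them averaged 0.955, and the averages of the remaining arrays were 0.967 to 0.977.

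The calmodulin-like genes Calm4 and Calml3 were higher in KO keratinocytes, and 0 of the 19 probe sets of the calcineurin, Rcan1 and CaM kinase II genes passed. Calm4 rose 5.07-fold and Calml3 rose 3.52-fold. Both genes passed, so that 2 of 21 probe sets and 2 of 7 genes were higher in KO and 0 lower, against 1.13% of all probe sets higher, 0.142% lower and 1.27% in either direction. Read by the brightest probe set of each gene, 1.82% of all genes were higher in KO and 0.165% lower. The members were chosen with earlier results of these data known, so these shares do not test the list. The median difference was 0.14 over the 21 probe sets and -0.02 over all probe sets (log2).

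Calm4 encodes a calmodulin-like protein of the skin that is also known as Scarf, for skin calmodulin-related factor. Its probe set, 1450633_at, read 12.19, 12.42, 12.16, 12.32 and 12.06 in KO arrays 8, 9, 10, 21 and 23, against 9.76, 9.69, 10.67, 9.59 and 9.74 in WT arrays 1 to 5 (log2 signal). The groups did not overlap, and the KO arrays were tightly grouped, while WT 3 lay well above the other WT arrays. The means were 12.23 ± 0.14 in KO and 9.89 ± 0.44 in WT (SD, n = 5 each), a difference of 2.34 (SE 0.20, 95% interval 1.91 to 2.77, limma adjusted p = 0.000331). Without WT 3 and in each other fit that left out 1 array, the difference stayed between 2.26 and 2.54 on the log2 scale.

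The start of Calm4 is shown because a neighbouring gene, Calm5 (also known as Scarf2), carries nearly the same one. The windows run from 250 bases before to 50 bases after the start listed in RefSeq (build GRCm38.p6, both on the plus strand of chromosome 13), at chr13:3837507-3837806 for Calm4 and chr13:3853923-3854222 for Calm5. They are printed 5′ to 3′, with a match to the letters TGANGTCA (a cyclic AMP response element type motif, here TGATGTCA) and to CCAAT in capitals.
Calm4: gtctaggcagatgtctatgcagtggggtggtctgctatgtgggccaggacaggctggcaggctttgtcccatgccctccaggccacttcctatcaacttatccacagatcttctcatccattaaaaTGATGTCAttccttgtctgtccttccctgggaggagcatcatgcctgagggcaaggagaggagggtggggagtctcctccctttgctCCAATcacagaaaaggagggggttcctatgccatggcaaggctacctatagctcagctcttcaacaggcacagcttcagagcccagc
Calm5: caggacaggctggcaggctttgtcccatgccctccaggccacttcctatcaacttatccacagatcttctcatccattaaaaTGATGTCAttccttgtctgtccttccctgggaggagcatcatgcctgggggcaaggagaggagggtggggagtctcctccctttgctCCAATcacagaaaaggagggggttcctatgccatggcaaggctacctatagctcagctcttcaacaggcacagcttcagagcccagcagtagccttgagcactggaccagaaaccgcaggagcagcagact
A local alignment joined 256 bases of the windows without a gap, of which 255 were identical. The match to TGANGTCA begins at position -124 from the listed start of Calm4 and at position -168 from that of Calm5, which is the same place in the shared stretch. Searched on both strands, TGANGTCA was found in 8.83% of 32851 windows of this length and CCAAT in 37.4%, and the 2 motifs do not overlap here. The AP-1 motif TGANTCA (in 7.81% of windows) and the NFAT core GGAAA (in 61.3%) had 0 matches in either window. The KLF core CACCC (in 57.5%) matched at 2 places in the Calm4 window and at 1 in the Calm5 window. A match of letters does not show that a factor binds. Calm5 was not analysed here, and whether the Calm4 probe set also reads Calm5 transcripts is not known from the files, so its value may be that of both genes.

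Calml3 encodes a calmodulin-like protein made mainly in epithelial cells. Its probe set, 1418608_at, read 8.04, 7.97, 7.17, 7.09 and 7.70 in KO arrays 8, 9, 10, 21 and 23, against 5.48, 6.37, 6.37, 5.32 and 5.35 in WT arrays 1 to 5 (log2 signal). The groups did not overlap, with a wider spread within each group than in Calm4. The means were 7.59 ± 0.44 in KO and 5.78 ± 0.54 in WT (SD, n = 5 each), a difference of 1.81 (SE 0.27, 95% interval 1.22 to 2.41, limma adjusted p = 0.00529). For Calm4 and for Calml3 the exact permutation test over the 252 assignments of the arrays gave p = 0.00794, the smallest it can give (two-sided, not adjusted). Every KO array lay above every WT array on 2 of the 21 member probe sets and below on 0, against 2.28% and 0.853% of all probe sets.

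The differentiating keratinocyte markers moved the same way in all 5 KO arrays, as given above, and their part in the higher Calm4 and Calml3 signals was not tested. In RNA from whole cultures, more cells of a type and more transcript per cell cannot be told apart. The sample titles also give a running array number, 1 to 5 for WT and 6 to 10 for KO. By this number KO 21 is 6 and KO 23 is 7. Array order and group therefore cannot be told apart. With the array number as a covariate the differences were 2.37 for Calm4 and 2.03 for Calml3 (log2). The limma adjusted p were 0.447 and 0.922, and 0 of 45037 probe sets passed.

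**Figure D1:**
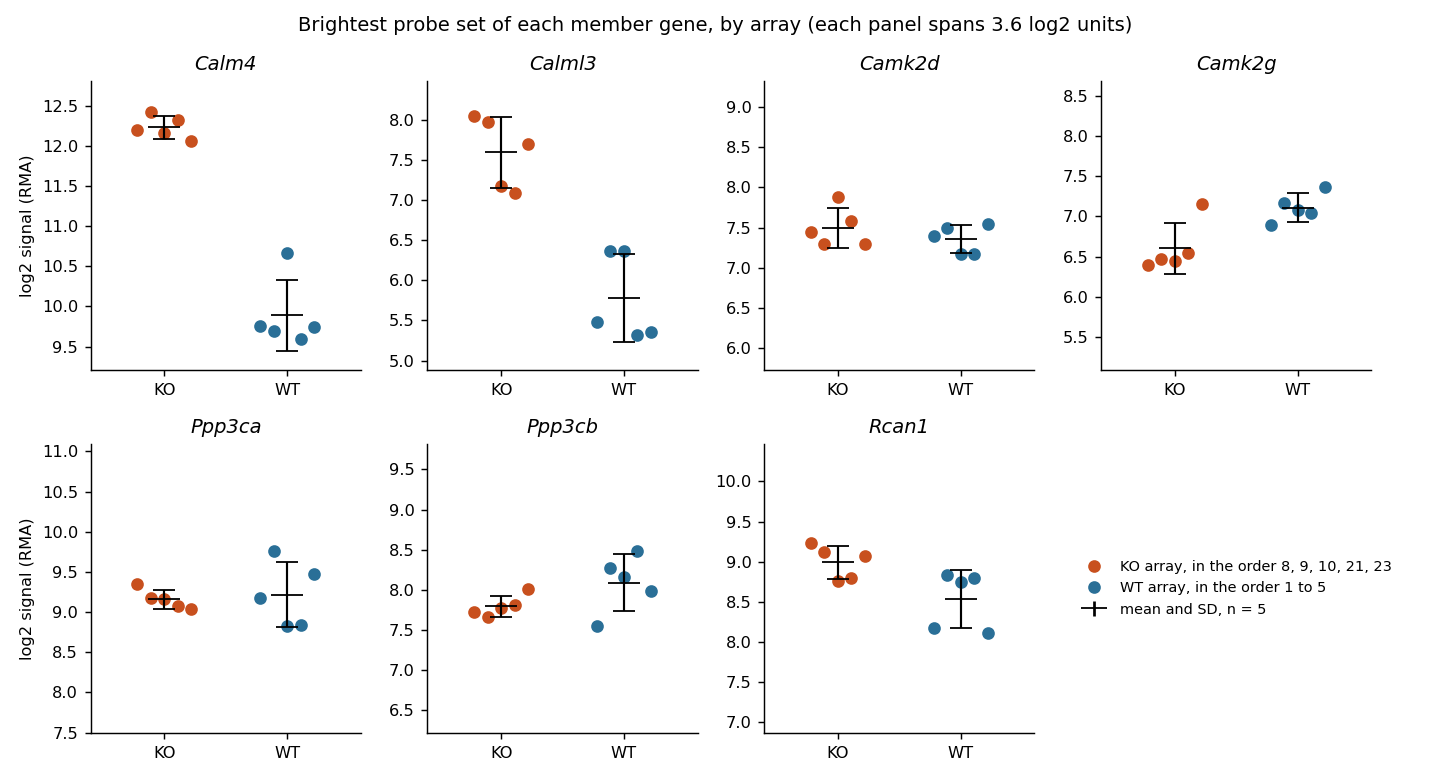
Signal of the brightest probe set of each of the 7 member genes on the 10 arrays (vertical axis, log2 signal, the same span in each panel), KO left and WT right, with bars for the mean and SD of 5 arrays. The KO points of Calm4 (12.06 to 12.42) and Calml3 (7.09 to 8.04) lie above all WT points, and the groups overlap in the other 5 panels.

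Calm4 and Calml3 are also neighbours. In the RefSeq gene table the protein-coding genes of chromosome 13 run Gdi2, Tasor2, Asb13, Calml3, Calm4, Calm5, Net1, Tubal3 and Ucn3. The flanking genes were looked up after the values of Calm4 and Calml3 had been seen. Of the 5 flanking genes measured, 0 passed, against 1.99% of all genes in either direction, a share at which 0 of 5 says little. Net1 differed by 0.47 (SE 0.19, limma adjusted p = 0.377) and Asb13 by 0.22 (limma adjusted p = 0.799). Tasor2 differed by 0.25 and by -0.12 without WT 1, on which it read 5.28 against 6.72 to 7.48 on the other WT arrays. Gdi2 differed by -0.22 and Ucn3 by -0.04 on the log2 scale, and Calm5 and Tubal3 were not analysed here. The differences of Calml3 and Calm4 were larger than these, but no test compared the genes with each other.

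**Figure D2:**
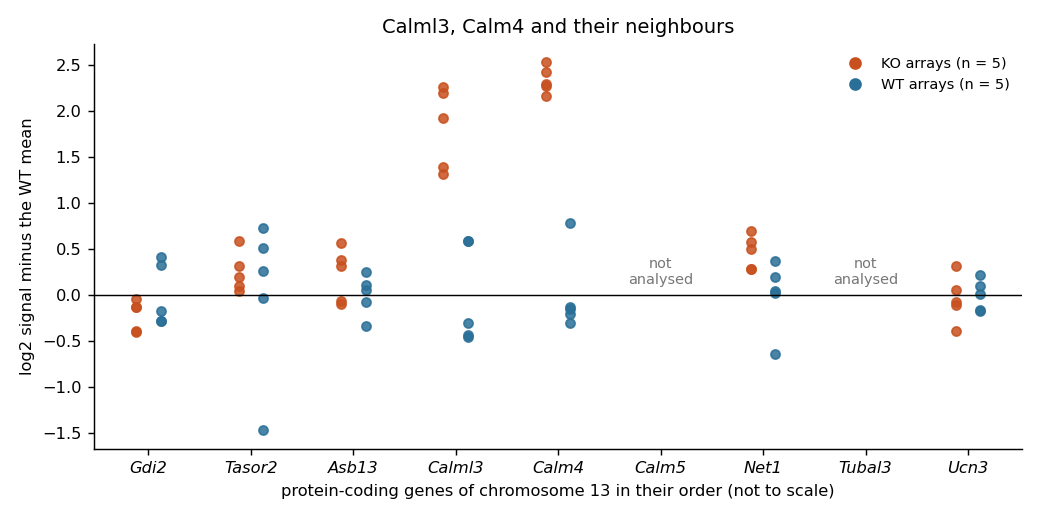
Signal of Calml3, Calm4 and the protein-coding genes around them on chromosome 13, in gene order (horizontal axis, not to scale), as log2 signal minus the WT mean, with 1 point per array. The KO points of Calml3 and Calm4 are set apart from the WT points, and those of Gdi2, Tasor2, Asb13, Net1 and Ucn3 overlap them.

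The genes whose pattern over the arrays was most like that of Calm4 or Calml3 were ranked over 16306 named genes by the root mean square difference of the log2 signals, each centred on its 10-array mean. This is a description with no test. The genes were chosen for closeness on these same arrays. Their rise in KO, and largely their likeness in array order, therefore follow from the choice. Nearest to Calm4 were Klk5 (0.227), a kallikrein protease of shedding skin, Slc10a6, a transporter of sulfated steroids, Tmprss4, a serine protease of the cell membrane, Aqp9, a channel for water and glycerol, and Pnpla1 (0.278), an enzyme of acylceramide synthesis. Each of these 5 passed as higher in KO, by 4.03-fold for Pnpla1 to 5.75-fold for Aqp9. As in Calm4, WT 3 was the highest WT array in 5 of the 5. The mean of the differentiating keratinocyte markers was highest among WT arrays on WT 3 as well, at 9.80 against 8.95 to 9.31 on the others. The single markers were divided: Krt1, Krt10, Krtdap and Dsg1a were highest among WT arrays on WT 3. Lor, Flg, Tgm1 and Sbsn were highest on WT 5, and Ivl on WT 1. Fibroblast and muscle markers also had their highest mean on WT 3, at 8.90 and 6.08. What part any of these had in the Calm4 signal was not tested.

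Nearest to Calml3 were Tmem45a (0.262), a membrane protein of keratinising cells, Hal, which makes urocanate from histidine, Klk13, a kallikrein protease, Pla2g4e, a cytosolic phospholipase, and Slc5a1 (0.322), a sodium and glucose cotransporter. Each of these 5 passed as higher in KO, by 2.99-fold for Slc5a1 to 3.82-fold for Pla2g4e. Their highest WT array was WT 2 or WT 3 in 5 of the 5, as in Calml3. The lists of nearest genes of Calm4 and Calml3 did not overlap, and the 2 members differed from each other by 0.480 on the same measure. The measure also takes in the size of the KO minus WT difference, 2.34 for Calm4 and 1.81 for Calml3. It therefore does not compare the patterns over the arrays alone.

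**Figure D3:**
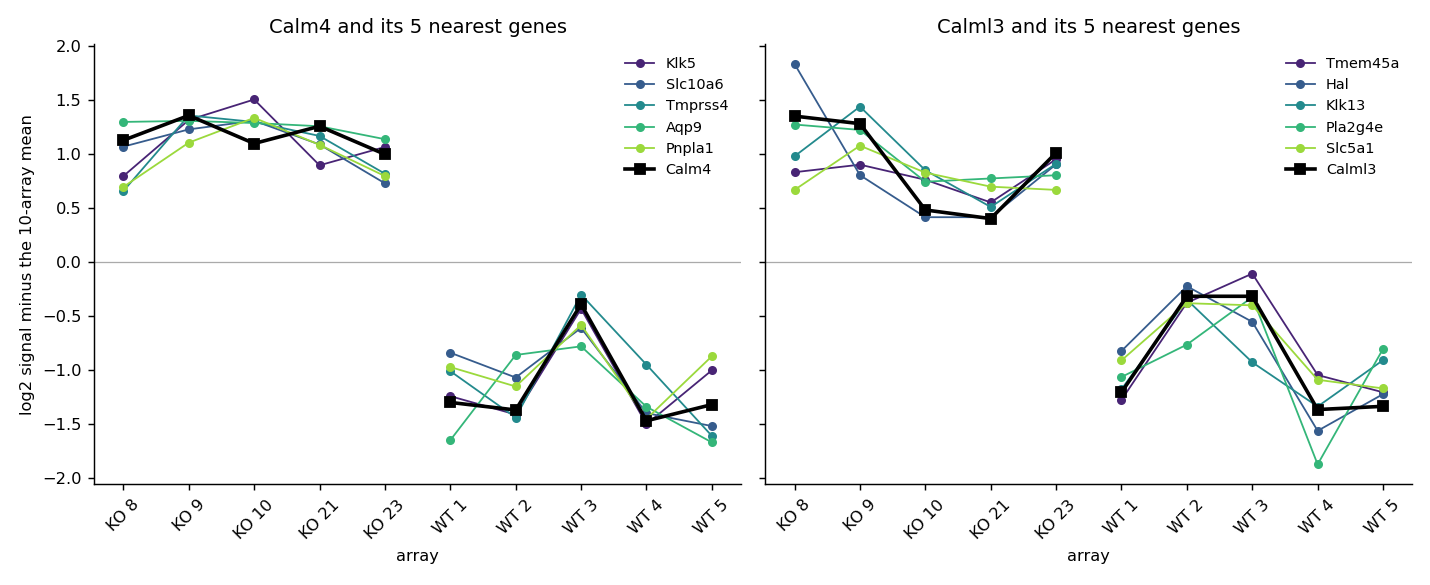
Log2 signal minus the 10-array mean (vertical axis) on each array, for Calm4 (left) and Calml3 (right) in black and their 5 nearest genes in colour; lines only join the points of a gene. On the left WT 3 is the highest WT array for every gene, and on the right WT 2 or WT 3 is.

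Rcan1, the calcineurin regulator, differed less and did not pass. Its brighter probe set, 1416600_a_at, read 9.23, 9.12, 8.76, 8.80 and 9.07 in KO arrays 8, 9, 10, 21 and 23, against 8.17, 8.84, 8.75, 8.80 and 8.11 in WT arrays 1 to 5 (log2 signal). The groups overlapped, with KO 10 and KO 21 level with WT 2, WT 3 and WT 4. The difference was 0.46 (SE 0.18, 95% interval 0.07 to 0.86, limma adjusted p = 0.368), or 1.38-fold. The exact permutation p of this probe set was 0.0476, two-sided and not adjusted.

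The other Rcan1 probe set, 1416601_a_at, averaged 8.25 ± 0.32 in KO and 8.06 ± 0.29 in WT (SD, n = 5 each), a difference of 0.19 (SE 0.19, limma adjusted p = 0.866). Its highest KO values were on KO 8 and KO 23, at 8.78 and 8.30, and its highest WT values on WT 2 and WT 1, at 8.40 and 8.24. RefSeq lists 2 starts for Rcan1, and whether these probe sets tell the transcripts from the 2 starts apart is not known from the files. A set whose name ends in _a_at is one that Affymetrix designed to match several transcripts of a gene.

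The catalytic subunits of calcineurin, encoded by Ppp3ca and Ppp3cb, gave 8 probe sets, of which 0 passed, against 1.27% of all probe sets. The brightest of Ppp3ca, 1438478_a_at, read 9.35, 9.17, 9.16, 9.08 and 9.04 in KO arrays 8, 9, 10, 21 and 23, against 9.17, 9.76, 8.83, 8.84 and 9.47 in WT arrays 1 to 5. The KO values lay inside the WT range. The difference was -0.05 (SE 0.19, 95% interval -0.46 to 0.35, limma adjusted p = 0.979). A change of more than about 0.46 on the log2 scale in either direction lies outside the interval of this probe set.

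The other Ppp3ca probe sets differed by 0.12 and 0.32. On both of them WT 1 was the lowest array, at 7.47 against 8.09 to 8.78 on the other WT arrays for 1426401_at and at 6.34 against 7.30 to 8.20 for 1452056_s_at. Without WT 1 the first of these differed by -0.07 and the second by 0.04.

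The brightest of Ppp3cb, 1427468_at, averaged 7.80 ± 0.13 in KO and 8.09 ± 0.35 in WT (SD, n = 5 each). The difference was -0.29 (SE 0.17, 95% interval -0.67 to 0.08, limma adjusted p = 0.666). Of the 5 Ppp3cb probe sets 4 had a negative and 1 a positive difference, from -0.33 to 0.30. Both ends of this range came from dim sets near background. They were 1446149_at, with means of 2.52 in KO and 2.85 in WT, and 1428474_at, with 3.00 and 2.69. The brighter sets 1433835_at and 1428473_at differed by -0.20 and -0.28. On 4 of the 5, WT 1 was the lowest WT array, as it was on 9 of the 21 member probe sets. On 1433835_at it read 6.60 against 7.78 to 8.05 on the other WT arrays, and without it the difference there was -0.46 (limma adjusted p = 0.123) against -0.20 with it.

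The CaM kinase II genes gave 9 probe sets, of which 0 passed, against 1.27% of all probe sets. The brighter of Camk2g, 1423941_at, read 6.40, 6.47, 6.44, 6.54 and 7.16 in KO arrays 8, 9, 10, 21 and 23, against 6.89, 7.17, 7.08, 7.04 and 7.37 in WT arrays 1 to 5. Of the KO arrays 4 lay below all WT arrays, and KO 23 lay within the WT range. The difference was -0.51 (SE 0.17, 95% interval -0.87 to -0.14, limma adjusted p = 0.248) and the exact permutation p was 0.0317, not adjusted. In the fits that left out 1 array it ran from -0.65 to -0.44, with limma adjusted p from 0.0526 to 0.536. The other Camk2g probe set differed by -0.36 (SE 0.18, limma adjusted p = 0.567).

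Camk2d had 7 probe sets, 6 with a positive and 1 with a negative difference, from -0.40 to 0.47. The brightest, 1427763_a_at, averaged 7.49 ± 0.25 in KO and 7.36 ± 0.18 in WT (SD, n = 5 each), a difference of 0.14 (SE 0.15, 95% interval -0.19 to 0.47, limma adjusted p = 0.893). The largest difference, 0.47 on 1422659_at, came with a WT 1 value of 5.09 against 6.46 to 6.81 on the other WT arrays, and it was 0.17 without WT 1. Of the dimmer sets, 1459457_at spread widely among the KO arrays, from 4.29 on KO 8 to 6.16 on KO 21, and narrowly among the WT arrays, from 4.64 to 5.26. The probe sets of Camk2d did not rank the arrays alike: WT 1 was the highest of all arrays on 1460630_at, at 4.36, and the lowest of all on 1422659_at. The set 1460630_at, which also gave the difference of -0.40, was dim, with means of 3.13 in KO and 3.53 in WT.

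**Figure D4:**
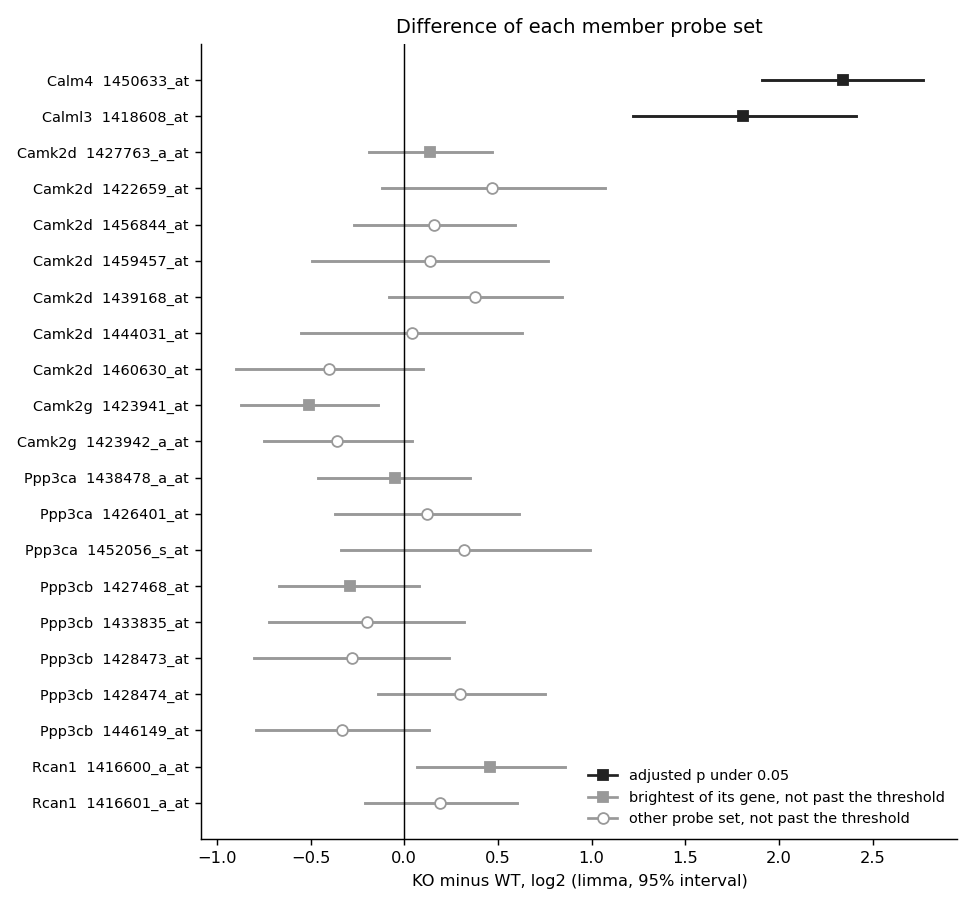
KO minus WT difference of each of the 21 member probe sets (log2, point) with its 95% interval from limma (line), squares for the brightest set of a gene. The intervals of Calm4 (1.91 to 2.77) and Calml3 (1.22 to 2.41) lie far right of 0, and the other intervals reach or come close to 0.

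The rest of the pathway was read from 7 lists of other calmodulin, calcineurin, NFAT and CaM kinase genes and calmodulin-binding proteins. Of 62 genes listed 58 were measured, each by its brightest probe set, and 1 passed as higher and 0 as lower in KO (1.82% and 0.165% of all genes). Their median difference was 0.03, against -0.01 over all genes. On 2 of the 58 the KO arrays lay entirely above the WT arrays and on 1 entirely below, against 3.36% and 1.02% of all genes.

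The gene that passed was Itpkc, a calmodulin-binding kinase that phosphorylates inositol trisphosphate, the messenger that opens calcium stores. It read 8.33, 8.84, 9.30, 8.68 and 8.81 in KO arrays 8, 9, 10, 21 and 23, against 7.48, 7.76, 8.16, 7.71 and 7.59 in WT arrays 1 to 5. The groups did not overlap. The difference was 1.05 (SE 0.19, limma adjusted p = 0.0155), or 2.07-fold. It did not pass without KO 9 (limma adjusted p = 0.0590), without WT 4 (0.0513) or without WT 1, WT 2 and KO 8 together (0.0501). These 3 arrays had the highest signals of the immediate early gene Fos, at 9.0 on KO 8, 8.85 on WT 2 and 8.45 on WT 1, against at most 7.44 on any other array. The second Itpkc probe set, at 0.59, did not pass (limma adjusted p = 0.563), nor did the mean of both sets, at 0.82 (0.0589).

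Camkk2, which encodes a kinase that activates other CaM kinases and the energy sensor AMPK, missed the threshold narrowly. It read 8.85, 8.29, 8.63, 8.28 and 8.09 in KO arrays 8, 9, 10, 21 and 23, against 10.16, 9.23, 9.20, 9.47 and 9.05 in WT arrays 1 to 5. All KO arrays lay below all WT arrays. The difference was -0.99 (SE 0.22, 95% interval -1.47 to -0.52, limma adjusted p = 0.0510). Its 3 other probe sets differed by -0.54, -0.53 and -0.26 and did not pass either.

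Of the genes singled out after their values were seen, Camk1d, another CaM kinase, differed by 0.74 (limma adjusted p = 0.0678) and Dapk2, a calmodulin-regulated death-associated protein kinase, by 0.78 (limma adjusted p = 0.0850). Among 7 NFAT factors and kinases that act on them, 0 passed, against 1.99% of all genes in either direction. On its brightest probe set, 1423380_s_at, Nfatc4 differed by -0.75 (SE 0.65, limma adjusted p = 0.836). This set read 5.66 to 7.13 on KO arrays, against 8.96 on WT 3, 9.06 on WT 4 and 5.26 to 6.57 on the other WT arrays. WT 3 and WT 4 also had the highest means of the fibroblast markers, 8.90 and 8.52, and of the muscle markers, 6.08 and 5.46. The part of these cells in the Nfatc4 signal was not tested. The dimmer Nfatc4 probe sets differed by -0.19, -0.05 and -0.22 and did not pass. WT 3 and WT 4 were the highest WT arrays on 1423379_at as well, at 4.07 and 3.15, but not on 1454369_a_at or 1432821_at. Csnk1a1, a casein kinase, differed by 0.31 and did not pass.

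Among the other calcineurin genes, the regulatory subunit gene Ppp3r1 differed by 0.17 and its testis form Ppp3r2 by -0.35, and neither passed. Ppp3r2 read near background, at 2.34 to 2.71 in KO and 2.67 to 3.36 in WT (log2 signal). Of the regulators, Rcan3, a relative of Rcan1, differed by -0.48 (SE 0.19, limma adjusted p = 0.375). Its dimmer probe set, 1434027_at, differed by 0.04, and the mean of both sets by -0.22. Cabin1, which encodes a calcineurin-binding protein, differed by -0.17, and by -0.08 and 0.25 on its other sets. Calml4, a further calmodulin-like gene, differed by 0.06 with 4.10 to 4.8 in KO and 3.98 to 4.71 in WT (log2 signal). Ppm1f, a phosphatase of CaM kinases, differed by -0.45 and Marcks, a calmodulin-binding substrate of protein kinase C, by 0.09, and neither passed. The 6 dimmer probe sets of Marcks differed by -0.02 to 0.46, and 0 passed.

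**Figure D5:**
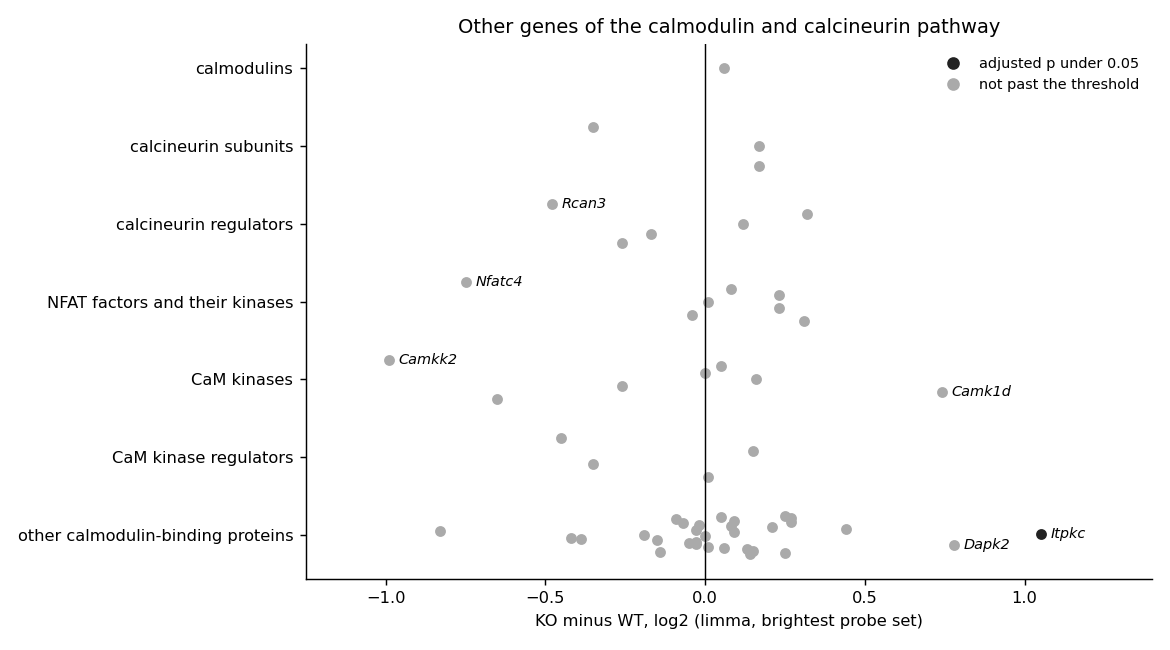
KO minus WT difference (horizontal axis, log2) of the 58 other pathway genes measured, 1 point per gene in the row of its list, black where the limma adjusted p was under 0.05. Itpkc at 1.05 is the black point, and Camkk2 at -0.99 is the lowest.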

How the data were processed

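Per the submitters' processing notes, the authors made the deposited log2 values with RMA (robust multi-array averaging), which corrects background, equalises the arrays' distributions and summarises the probes of each set. The software and version are not given in the sources used here. RMA compresses differences of dim genes, and equalised arrays cannot show a shift shared by most genes. The medians of the arrays lay between 5.02 and 5.17. The 10 columns of values were used as deposited and 0 left out. Per the labels' protocols, Trizol RNA, 6 µg a sample, was labelled as biotinylated cRNA. The number of arrays limits the precision.

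Of 45101 probe sets, 64 Affymetrix controls were left out. Of the 45037 tested, 34945 had exactly 1 gene, 932 several and 9160 none named in the platform annotation used. For 34741 the gene identifier was found in the RefSeq table (GRCm38.p6), which gave current symbols. A gene was read by its probe set with the highest mean.

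Differences are KO minus WT from limma's lmFit and eBayes (limma 3.58.1, R 4.3.3, two-sided, Benjamini-Hochberg over the 45037 probe sets, threshold 0.05). SE is the moderated standard error, and SD the spread between 5 arrays. Intervals at 95% are not adjusted. Single values were also compared by an exact permutation test. In simulated data of 45037 probe sets with the spreads of this comparison, 54% of probe sets changed by 1 and 87% of those changed by 2 (log2) were recovered, and 8 unchanged ones were called. Windows were aligned with Biopython 1.88. RefSeq start windows were found for 5 of the 9 members.

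The members and lists were chosen with earlier results of these data known. Besides the members, the text names the pathway genes that passed, the brightest and the most different gene of each pathway list, and the 5 nearest genes of each member that passed; Camk1d, Dapk2, Fos and the flanking genes of chromosome 13 were chosen after their values were seen. The alternatives were another choice of probe sets, a minimum mean of 6, other normalisations, other estimates of the spread, array weights, array number, and leaving out arrays.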

Additional observations from a re-analysis of the deposited data

Results flagged for a closer look

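In the 21 member probe sets, 42 groups of 5 arrays were checked for an array set apart from the rest, and 9 had one (gap to the nearest array over 0.710 of the range of the group). Chance flags about 5% of groups. On the Calm4 probe set the high array was WT 3 at 10.67, against 9.59 to 9.76 on the other WT arrays. WT 1 was the low array on 4 sets: Camk2d 1422659_at at 5.09, and Ppp3cb 1433835_at at 6.60, 1428473_at at 6.31 and 1428474_at at 2.04. KO 8 was low on Camk2d 1422659_at at 6.44, against 6.8 to 6.87 on the other KO arrays. KO 10 was low on Camk2d 1460630_at at 2.71. On Camk2g, KO 23 was high on 1423941_at at 7.16, against 6.40 to 6.54 on the other KO arrays, and KO 21 was low on 1423942_a_at at 5.90.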

How the results depend on the processing

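Each result was recomputed under up to 19 other settings. Calm4 and Calml3 passed in 18 of 19, the exception being the array number as a covariate. Their differences ran from 2.24 to 2.54 and from 1.70 to 2.03, and their limma adjusted p from 2.42e-05 to 0.447 and from 0.00222 to 0.922. Rcan1, Camk2d, Ppp3ca and Ppp3cb passed in 0 of 19 on the brightest probe set, and Camk2g in 1, with array weights (difference -0.57, limma adjusted p = 0.0376). Itpkc passed in 14 of 19, Camkk2 in 7, Camk1d in 6 and Dapk2 in 2. With the mean of all probe sets of a gene, Camk1d and Dapk2 passed (limma adjusted p = 0.0307 and 0.0433) and Itpkc did not (0.0589). No paired analysis was possible because no replicate number occurs in both groups.

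With the array number as a covariate the counts were 0 higher and 0 lower over all probe sets, the members and the other pathway genes. It turned the sign of Camk2d sets 1422659_at (-0.40), 1439168_at (-0.04), 1444031_at (-0.21) and 1460630_at (0.54), Ppp3ca sets 1426401_at (-0.49) and 1452056_s_at (-0.48), Gdi2 (0.08), Marcks (-0.01), Tasor2 (-0.97) and Ucn3 (0.37), none past the threshold. The covariate runs with the groups, which widened the errors, from 0.20 to 0.42 for Calm4. With array weights 1242 probe sets passed as higher and 654 as lower, against 508 and 64, 1 member was lower (Camk2g), and of the other pathway genes 2 were higher and 1 lower. Ppp3ca turned to 0.10 and Tasor2 to -0.05. Of the other pathway genes, 3 were higher and 1 lower with a minimum mean of 6, 2 and 1 with 1 probe set per gene, 2 and 1 with the mean of all probe sets of a gene, and 1 was lower with an intensity trend and robust estimation of the spread together; in each the lower one was Camkk2. A minimum mean of 6 gave 99 lower probe sets. With the mean of all sets Ppp3ca was 0.13 and Gdi2 0.04. Without WT 1, WT 2 and KO 8, 28 probe sets were lower, Ppp3ca was 0.07 and Tasor2 -0.21.

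Leaving out 1 array at a time gave 290 to 509 higher and 11 to 93 lower probe sets, and 0 to 2 higher and 0 to 1 lower other pathway genes. The fewest came without KO 9 (290 and 11), and counts were also low without KO 10 (302 and 19), without WT 4 (316 and 19) and, for lower ones, without KO 21 (27). Signs near 0 turned in Ppp3ca (-0.15 to 0.08) and its set 1426401_at (-0.07 to 0.26), Camk2d sets 1444031_at (-0.11 to 0.23) and 1459457_at (-0.11 to 0.36), Calml4 (-0.04 to 0.16), Tasor2 (-0.12 to 0.43) and Ucn3 (-0.13 to 0.05). The causes were not tested. Dim sets near background, such as Ppp3cb 1428474_at, limit what can be seen.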
